A study of Arabidopsis thaliana with 45 samples.

Results

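Polycomb repressive complex 1 (PRC1) and the proteins that act with it at histone H3 trimethylated on lysine 27 (H3K27me3) were followed through 8 Arabidopsis thaliana genes, of 32678 in the count table. They were chosen by name and locus: RING1A (AT5G44280), RING1B (AT1G03770), BMI1A (AT2G30580), BMI1B (AT1G06770), BMI1C (AT3G23060), EMF1 (AT5G11530), LHP1 (AT5G17690) and VRN1 (AT3G18990). RNA was read over 4 genotypes and H3K27me3 peaks over the gene bodies in 9 ChIP groups, each group with 3 libraries. Among the 8, EMF1 was the gene that stood out in both assays. It lay under an H3K27me3 peak in all 27 H3K27me3 libraries. Its RNA was 1.71-fold higher when FIE was silenced and 2.74-fold higher in the FIE phosphorylation-site mutant. Of all 20046 genes tested, 29.3% and 33.3% rose in these comparisons. The share of all genes under a peak in all 27 libraries is not given. BMI1C was marked in 23 of 27 libraries and gave at most 5 reads in any RNA library, and the other 6 genes were expressed and, with 1 exception in 1 library, unmarked.

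The Polycomb system represses developmental genes in steps. PRC2, which holds the WD-repeat protein FIE and a histone methyltransferase, writes H3K27me3, and PRC1 holds RING1 and BMI1 proteins that join ubiquitin to histone H2A. Plants add proteins of their own, among them EMF1 and the chromodomain protein LHP1, which binds H3K27me3. In seedlings this system keeps flower and seed genes silent.

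The study compared plants altered in FIE or in TOR, a kinase of growth and nutrient signalling. The 12 RNA libraries and 12 of the H3K27me3 libraries came from shoots of plants grown for 2 weeks on solid medium. Ctrl was wild-type Col-0, and amiR-fie-es carried an artificial microRNA against FIE in the PLB21 vector, induced with oestradiol (10 mM as labelled) from the start. In GFP-FIE, wild-type GFP-FIE complemented a fie mutant, and in SSTS/AAAA the complementing GFP-FIE had its phosphorylation sites mutated. Both therefore carry the fie mutation and a transgene, so GFP-FIE was the control for SSTS/AAAA. The other 15 H3K27me3 libraries and 6 H3K9me2 libraries came from seedlings grown in liquid medium and taken at 7 days. These were Col-0, tor-es (oestradiol added on day 3 to deplete TOR, 10 mM as labelled), and Col-0 given DMSO, AZD8055 or Torin2 from day 4 for 3 days. Both compounds are TOR kinase inhibitors, and their labelled dose of 10 was read as µM. The labels do not say whether wild-type plants received oestradiol, so inducer and silencing cannot be told apart, and neither the promoters of the transgenes nor the number of lines is given.

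RNA libraries held 28866845 to 34543091 counts. FIE RNA fell from 17.6 to 8.90 CPM (counts normalised to library size) in amiR-fie-es, by 0.98 ± 0.07 on the log2 scale (SE, n = 3 per group). In the complemented lines FIE counts can include the transgene: GFP-FIE held 25.5 CPM and SSTS/AAAA 11.8 CPM. SSTS/AAAA thus had less FIE RNA than its control (-1.11 ± 0.06 on the log2 scale). In that comparison the mutated sites and the FIE level cannot be told apart. SSTS/AAAA replicate 1 stood apart from its group, with a chi-square per degree of freedom of 3.26 and 3.41 against the other 2 libraries, where other pairs of one genotype gave 1.46 to 1.85. Summed leaf markers (4 of 4 detected) ran from 49780 to 51608 CPM in Ctrl and GFP-FIE and from 35158 to 36106 CPM in amiR-fie-es and SSTS/AAAA. Summed flower markers (6 of 6 detected) were 4.22 to 7.21 CPM in Ctrl and GFP-FIE, 167 to 172 CPM in amiR-fie-es and 298 to 301 CPM in SSTS/AAAA. Seed markers stayed at or under 1.24 CPM, with the storage-protein gene SESA1 at 0 in all groups but amiR-fie-es, and pollen markers at or under 1.08 CPM. Root markers summed to between 241 and 262 CPM, nearly all from PYK10. The other root markers, COBL9, EXPA7 and WOX5, held 48, 8 and 50 reads over all 12 libraries. The part of these organ markers in the results below was not tested, and in whole shoots fewer cells of a type and less RNA per cell cannot be told apart. Nothing in the labels says that replicates came from separate cultures, so p-values measure the spread between these libraries.

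**Figure D1:**
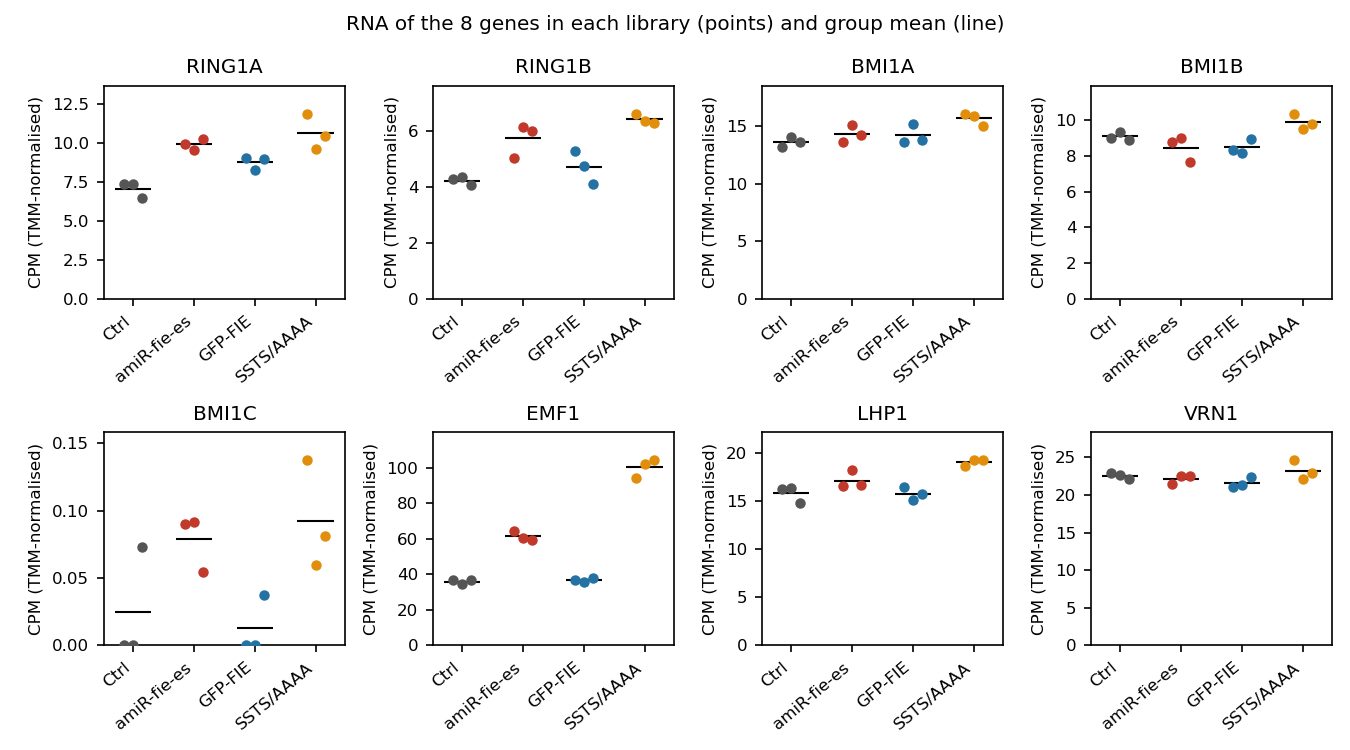
RNA of the 8 genes in each of the 12 libraries (points, TMM-normalised CPM) with the group mean (line), by genotype. The 3 SSTS/AAAA and 3 amiR-fie-es libraries lay above all Ctrl and GFP-FIE libraries for EMF1, and BMI1C stayed under 0.15 CPM throughout.

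The 8 genes differed widely in level. Per transcript length, in the deposited FPKM of Ctrl, VRN1 was highest at 13.97 ± 0.31 (SD, n = 3). EMF1 at 8.30 and LHP1 at 8.20 followed, and their ranges overlapped. BMI1A at 6.39, BMI1B at 3.88, RING1A at 3.28 and RING1B at 2.40 came next, with no overlap between neighbours, and BMI1C was last at 0.0127 FPKM. GFP-FIE kept the order of the first 4, again with EMF1 (8.33) and LHP1 (8.01) overlapping, but RING1A at 3.99 FPKM stood above BMI1B at 3.55. In SSTS/AAAA EMF1 was first at 26.5 FPKM, above VRN1 at 16.4, followed by LHP1 at 11.3, BMI1A at 8.36, RING1A at 5.61, BMI1B at 4.81, RING1B at 4.15 and BMI1C at 0.0553 FPKM. In amiR-fie-es EMF1 (16.2 FPKM) and VRN1 (15.7 FPKM) overlapped at the top, as did BMI1B (4.12 FPKM) and RING1B (3.72 FPKM) near the bottom.

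When FIE was silenced, RNA of 3 of the 7 tested genes rose and none fell. They were EMF1, RING1A and RING1B. Over all 20046 genes tested, 29.3% rose and 30.0% fell, so the share of these genes that rose, 3 of 7, stands beside a background in which a rise was common. The median log2 fold change of the 7 was 0.12, against 0.01 over all tested genes. In 4 of the 7, LHP1 included, every amiR-fie-es library lay above every Ctrl library, as did 31.7% of all tested genes. In the phosphorylation-site mutant 6 of the 7 rose against GFP-FIE and none fell, where 33.3% of all tested genes rose and 32.3% fell. Their median was 0.28, against 0.02 over all tested genes. In 5 of the 7 every SSTS/AAAA library lay above every GFP-FIE library, as in 34.7% of all tested genes. EMF1, RING1A and RING1B rose in both comparisons, and 17.8% of all tested genes did. Set against Ctrl, SSTS/AAAA had 5 of the 7 higher and none lower, where 35.0% of all tested genes rose and 34.1% fell. There EMF1 rose by 1.48 ± 0.04 on the log2 scale, RING1B by 0.60 ± 0.11, RING1A by 0.59 ± 0.08, LHP1 by 0.27 ± 0.06 and BMI1A by 0.20 ± 0.06.

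The size and the calls of the smaller changes depended on the scaling. In amiR-fie-es against Ctrl the direction did too for BMI1B and VRN1. TMM scaling assumes that most genes keep their level, and with library totals in its place the median gene moved to 0.20 in amiR-fie-es against Ctrl and to 0.23 in SSTS/AAAA against GFP-FIE. Calls over all genes then split into 10673 up and 3674 down in amiR-fie-es, from 5868 and 6005, and into 11214 up and 3846 down in SSTS/AAAA, from 6666 and 6471. Against Ctrl, SSTS/AAAA calls split into 10592 up and 4437 down, from 7016 and 6839. Under totals 6 of the 7 genes rose in amiR-fie-es and all 7 in SSTS/AAAA, and the changes below are relative to the typical gene.

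**Figure D2:**
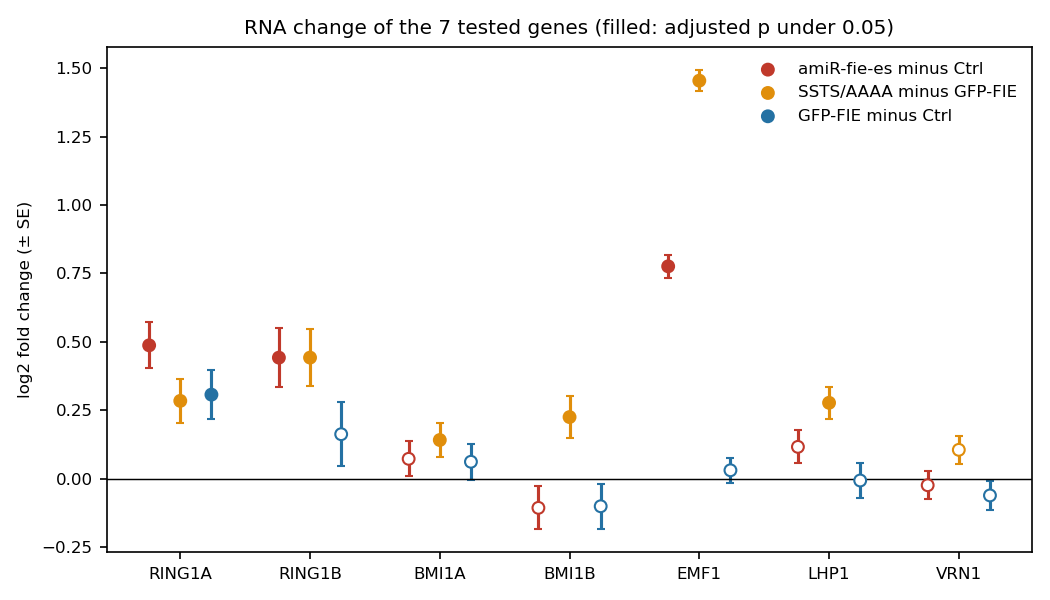
Log2 fold change with its SE for the 7 tested genes in 3 comparisons (filled points have an adjusted p under 0.05, edgeR's quasi-likelihood test). EMF1 lies highest in both FIE comparisons, at 0.78 and 1.45, and RING1A alone is filled in GFP-FIE minus Ctrl.

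RING1A and RING1B encode the RING1-type subunits of the H2A ubiquitin ligase. RING1A gave 7.33, 7.36 and 6.47 CPM in Ctrl and 9.88, 9.50 and 10.3 CPM in amiR-fie-es. The groups did not overlap, and the rise was 1.40-fold (log2 0.49 ± 0.08 SE, adjusted p = 3.2e-06, edgeR's quasi-likelihood test with Benjamini-Hochberg adjustment, as for every adjusted p of RNA below). In GFP-FIE it gave 9.0, 8.25 and 8.94 CPM and in SSTS/AAAA 11.9, 9.58 and 10.4 CPM, again without overlap, a log2 rise of 0.28 ± 0.08 (adjusted p = 0.0018). RING1A was also the 1 tested gene of the 7 that rose in GFP-FIE over Ctrl, by 0.31 ± 0.09 (adjusted p = 0.0065), where 14.4% of all tested genes rose and 15.3% fell. Without Ctrl replicate 3, its lowest library, that difference was 0.25 (adjusted p = 0.0580). When amiR-fie-es was instead compared with GFP-FIE, which was added after seeing the data, RING1A was higher by 0.18 (adjusted p = 0.0552) and missed the threshold. EMF1 and RING1B were then the 2 of 7 that rose, where 27.9% of all tested genes rose and 28.6% fell.

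RING1B was the lowest of the tested genes per length in Ctrl. It gave 4.27, 4.34 and 4.07 CPM in Ctrl against 5.05, 6.17 and 6.02 CPM in amiR-fie-es, and 5.31, 4.76 and 4.12 CPM in GFP-FIE against 6.63, 6.37 and 6.30 CPM in SSTS/AAAA. Neither pair of groups overlapped, and both log2 changes were 0.44, with SE 0.11 and 0.10 (adjusted p = 0.00055 and 0.00027). The amiR-fie-es and GFP-FIE libraries were the most scattered (SD 0.608 and 0.597 CPM). GFP-FIE did not differ detectably from Ctrl (0.16 ± 0.12, adjusted p = 0.328). RING1B overlaps its neighbour TPX2, a spindle-protein gene, by 163 bases, and TPX2 held 5906 counts over the 12 libraries. The counting rule for such reads and the strand setting are not given in the sources used here, so the RING1B values can hold reads of TPX2. RING1A and LHP1 overlap a neighbour by 8 and 12 bases.

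BMI1A and BMI1B encode the RING-finger partners of RING1 in the ligase; the reference table lists them under the names DRIP2 and DRIP1. BMI1A gave 13.2, 14.1 and 13.6 CPM in Ctrl and 13.6, 15.1 and 14.2 CPM in amiR-fie-es, which overlapped (0.07 ± 0.06, adjusted p = 0.338). SSTS/AAAA libraries, at 16.1, 15.9 and 15.03 CPM, overlapped those of GFP-FIE, at 13.7, 15.2 and 13.8 CPM. The rise of 0.14 ± 0.06 passed narrowly (adjusted p = 0.0429) and was lost when any of GFP-FIE replicates 1 and 3 or SSTS/AAAA replicates 1 and 2 was left out. Against Ctrl the SSTS/AAAA rise was 0.20 ± 0.06 (adjusted p = 0.0040), and without Ctrl replicate 1 it was 0.15 (adjusted p = 0.0616).

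BMI1B gave 9.02, 9.35 and 8.90 CPM in Ctrl and 8.77, 8.98 and 7.63 CPM in amiR-fie-es, an overlapping difference of -0.11 ± 0.08 that did not pass (adjusted p = 0.247) and was 0.08 under library totals. GFP-FIE gave 8.36, 8.14 and 8.94 CPM and SSTS/AAAA 10.4, 9.52 and 9.80 CPM. These groups did not overlap, and the rise was 0.22 ± 0.08 (adjusted p = 0.0102), lost without GFP-FIE replicate 1 or 2 or SSTS/AAAA replicate 1 (adjusted p = 0.0646, 0.0932 and 0.0528). The effect in SSTS/AAAA exceeded that in amiR-fie-es by 0.33 ± 0.11 on the log2 scale (adjusted p = 0.0123).

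BMI1C, a near-silent relative of BMI1A and BMI1B in these shoots, did not pass the filter on low counts. It held 0, 0 and 2 reads in Ctrl, 3, 3 and 2 in amiR-fie-es, 0, 0 and 1 in GFP-FIE, and 5, 2 and 3 in SSTS/AAAA. The SSTS/AAAA libraries lay above those of GFP-FIE, and the amiR-fie-es libraries met the highest Ctrl library at 2 reads. The ratio of summed counts, scaled by library size, was 3.22 for amiR-fie-es over Ctrl (95% counting interval 0.642 to 31.1) and 7.75 for SSTS/AAAA over GFP-FIE (1.1 to 336). These intervals cover counting error only. With every gene with a count in the fit, neither difference passed (adjusted p = 0.348 and 0.0997).

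EMF1 encodes a plant-specific protein that acts with PRC1 and PRC2 to hold back flowering, and seedlings that lack it flower almost at once. Its RNA gave 36.5, 34.5 and 36.5 CPM in Ctrl and 36.7, 35.3 and 37.8 CPM in GFP-FIE, a difference of 0.03 ± 0.05 (adjusted p = 0.679). In amiR-fie-es the libraries gave 64.4, 60.4 and 59.4 CPM, all above Ctrl, a 1.71-fold rise (log2 0.78 ± 0.04, adjusted p = 1.2e-20). In SSTS/AAAA they gave 94.4, 102 and 104 CPM, all above every other library of the study. That was a 2.74-fold rise over GFP-FIE (log2 1.45 ± 0.04, adjusted p = 1.3e-31), and EMF1 was the 1 member that rose at least 2-fold there, as 7.65% of all tested genes did.

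The SSTS/AAAA effect on EMF1 exceeded the amiR-fie-es effect by 0.68 ± 0.06 on the log2 scale (adjusted p = 1.6e-13). Of the 7 tested genes, EMF1 and BMI1B had such a difference, both toward SSTS/AAAA, where 23.5% of all tested genes differed in that direction and 22.0% in the other. For LHP1 the difference was 0.16 (adjusted p = 0.117), for VRN1 0.13 (adjusted p = 0.151), for BMI1A 0.07 (adjusted p = 0.564) and for RING1A -0.20 (adjusted p = 0.158). For RING1B it was 0.00 (adjusted p = 1.00). A missed threshold does not show that effects are equal. Without SSTS/AAAA replicate 1, the library that stood apart, the EMF1 rise over GFP-FIE was 1.5 on the log2 scale. RING1A then had a difference of -0.29 (adjusted p = 0.0422), and 4 of the 7 genes rose in SSTS/AAAA in place of 6.

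LHP1 encodes a chromodomain protein that binds H3K27me3 and is the gene listed as TFL2 in the reference table. It gave 16.3, 16.3 and 14.8 CPM in Ctrl and 16.6, 18.3 and 16.7 CPM in amiR-fie-es. The groups did not overlap, yet the difference of 0.12 ± 0.06 missed the threshold (adjusted p = 0.0938). GFP-FIE, at 16.5, 15.1 and 15.7 CPM, lay below SSTS/AAAA, at 18.7, 19.3 and 19.3 CPM, a rise of 0.28 ± 0.06 (adjusted p = 6.9e-05).

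VRN1 encodes a DNA-binding protein with B3 domains that is needed for stable silencing of FLC after cold. It gave 22.9, 22.6 and 22.1 CPM in Ctrl, 21.4, 22.6 and 22.5 CPM in amiR-fie-es, 21.1, 21.4 and 22.4 CPM in GFP-FIE, and 24.6, 22.1 and 22.9 CPM in SSTS/AAAA. All 4 genotypes overlapped. The differences were -0.02 ± 0.05 in amiR-fie-es (adjusted p = 0.710; 0.17 with adjusted p = 0.0043 under library totals) and 0.11 ± 0.05 in SSTS/AAAA over GFP-FIE (adjusted p = 0.071).

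Over the 12 libraries, the genes whose log2 CPM (prior count 2) most resembled that of EMF1 by Pearson correlation were AGO1 (0.997), AAE3 (0.997), IQD14 (0.996), CALS1 (0.996) and ATL15 (0.995). AGO1, a slicer of small-RNA pathways, averaged 227 CPM in Ctrl, 254 CPM in amiR-fie-es, 228 CPM in GFP-FIE and 281 CPM in SSTS/AAAA. The most like RING1B were AT5G28040 (0.979), AT3G49830 (0.967), MKK2 (0.963), SGS3 (0.952) and AT5G61190 (0.951). These coefficients describe 12 libraries in 4 genotypes, share the same libraries and depth, and carry no test.

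A list of 24 partner genes, whose proteins are linked to the Polycomb system or to histone methylation, changed in both directions. In amiR-fie-es 9 rose and 4 fell (median 0.05), beside 29.3% and 30.0% of all tested genes and a median of 0.01. In SSTS/AAAA against GFP-FIE 6 rose and 4 fell (median 0.03), beside 33.3% and 32.3% of all tested genes and a median of 0.02. SHL, a reader of methylated histone H3, fell from 58.6 to 40.4 CPM in amiR-fie-es (-0.54 ± 0.04) and was also lower in GFP-FIE than in Ctrl (-0.29 ± 0.04). VAL3, of the VAL family of B3-domain repressors, rose from 2.24 to 5.25 CPM in SSTS/AAAA (1.22 ± 0.13) and by 0.37 ± 0.14 in amiR-fie-es. JMJ14, a histone H3K4 demethylase, rose by 0.25 in amiR-fie-es and 0.40 in SSTS/AAAA, and UBP13, a ubiquitin protease, by 0.24 and 0.21. The polymerase II phosphatase gene CPL2 fell by 0.28 and 0.16 in the same comparisons. AL2, of the Alfin1-like family of PHD-finger readers, rose by 0.15 in amiR-fie-es and 0.11 in SSTS/AAAA. The DNA polymerase alpha gene ICU2 rose by 0.10 in amiR-fie-es and fell by 0.39 in SSTS/AAAA, and VAL1 rose by 0.12 and fell by 0.28. Between the controls, VAL1 was higher in GFP-FIE by 0.28, and 1 of 24 rose and 1 fell, where 14.4% and 15.3% of all tested genes did.

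Of the other PRC2 genes, 4 of 7 tested rose and 1, FIE itself, fell in amiR-fie-es, where 29.3% of all tested genes rose and 30.0% fell. The rises were those of MEA, MSI1 (0.25 on the log2 scale), SWN (0.20) and VRN2 (0.14). In SSTS/AAAA against GFP-FIE, MEA, SWN (0.40), MSI1 (0.20) and VRN2 (0.16) rose, and FIE (-1.11) and CLF (-0.23) fell, so that 4 of 7 rose and 2 fell, beside 33.3% and 32.3% of all tested genes. MEA, a PRC2 methyltransferase gene known from the seed, was near 0 in both controls, at 0.0244 CPM in Ctrl and 0.0489 CPM in GFP-FIE, and stood at 1.46 CPM in amiR-fie-es and 0.869 CPM in SSTS/AAAA. A list of 22 known Polycomb targets had 15 tested genes. Of these 9 rose and 1 fell in amiR-fie-es (median 0.49), beside the same 29.3% and 30.0% of all tested genes. In SSTS/AAAA 14 rose and 1 fell (median 2.17), beside 33.3% and 32.3%. The floral regulator AG rose from 0.352 to 35.2 CPM in amiR-fie-es and from 0.625 to 30.5 CPM in SSTS/AAAA, and SEP3 from 3.11 to 96.3 CPM and from 3.28 to 118 CPM. Both are also among the flower markers above. In GFP-FIE against Ctrl, 3 of the 15 rose, among them FLC (0.63), and 2 fell, where 14.4% and 15.3% of all tested genes did.

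**Figure D3:**
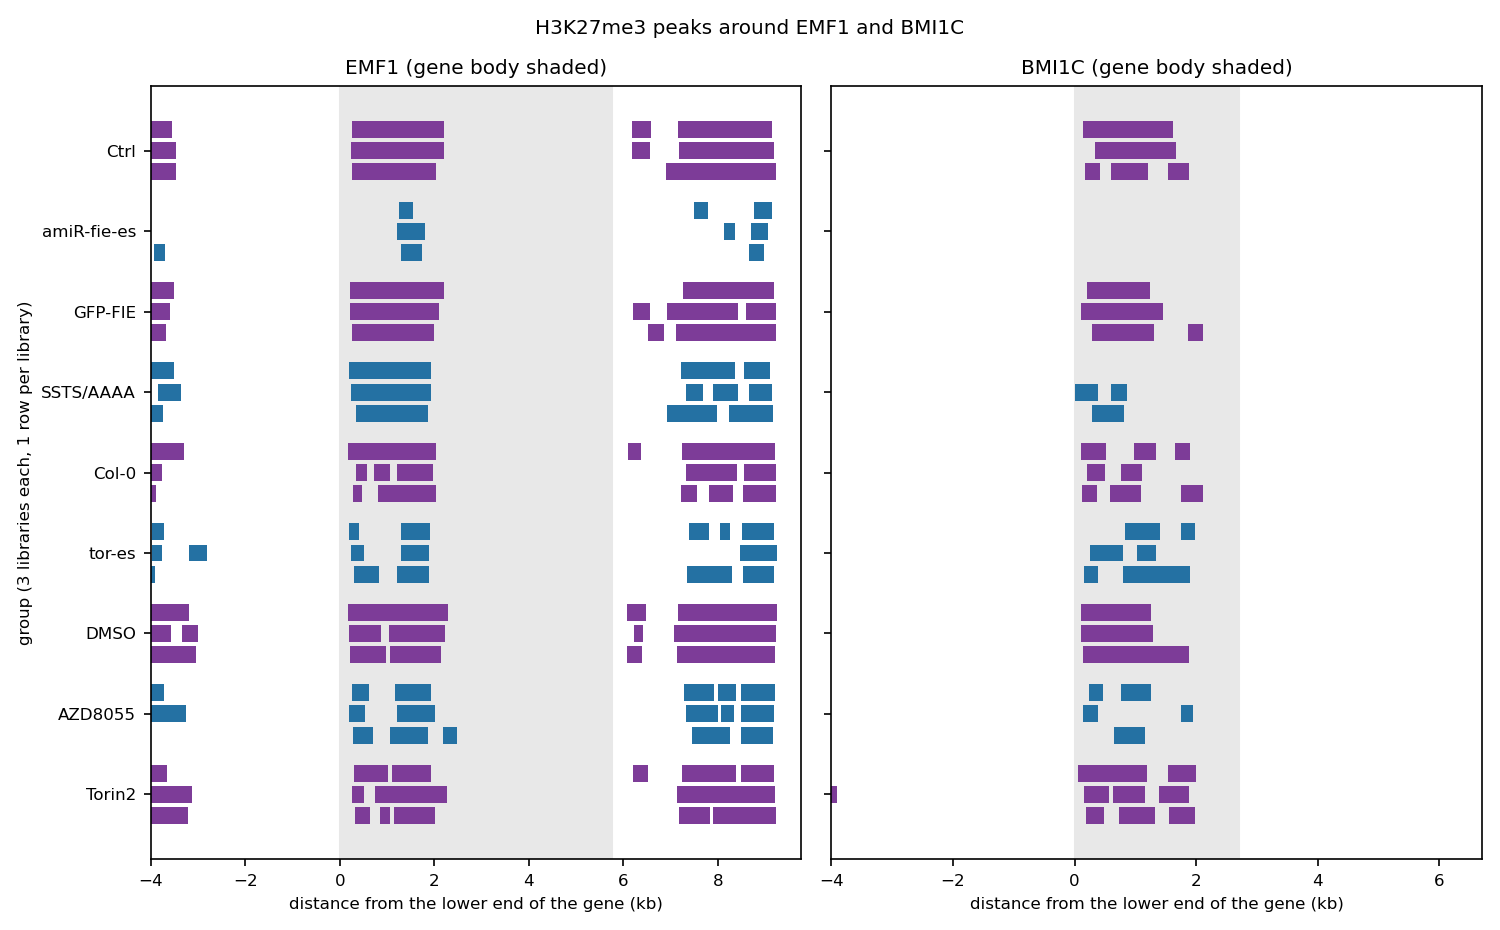
H3K27me3 peaks around EMF1 and BMI1C in each of the 27 libraries (1 row per library, bars are peaks, grey is the gene body, x axis in kb from the end of the gene with the lower coordinate). Peaks on EMF1 lie toward that end and are narrowest in amiR-fie-es, and BMI1C has no peak in amiR-fie-es.

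In the H3K27me3 libraries the 8 genes fell into marked and unmarked. A gene was called marked in a library where peaks covered at least 200 bases of its body, which held for 17.9% of 27444 nuclear protein-coding genes in all 3 Ctrl libraries. EMF1 and BMI1C were marked in all 3 libraries of Ctrl, GFP-FIE, Col-0, tor-es, DMSO, AZD8055 and Torin2. RING1A, RING1B, BMI1A, BMI1B and VRN1 had no peak over their bodies in any of the 27, and LHP1 had 1, of 231 bases, in AZD8055 replicate 1 (chr5:5829343-5829573). No member had an H3K9me2 peak, over the body or within 1 kb, in any of 6 libraries of Col-0 and tor-es. Those libraries marked 0.153 to 0.24% of all genes each, so this does not set the members apart. Of the 24 partner genes, 0 were marked in all 3 Ctrl libraries. All 22 genes of the target list were, but they were listed as known Polycomb targets, so their marking is no separate result.

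EMF1 combined the mark with expression. The 4815 genes that were marked in all 3 Ctrl libraries and had an FPKM value had a median of 0.0748 FPKM in Ctrl, and EMF1, at 8.30, was above 90.0% of them. BMI1C, at 0.0127 FPKM, was above 25.6%.

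The mark on EMF1 lay in a block toward the end of the gene with the lower coordinate. In Ctrl, replicate 1 had 1 peak at chr5:3696046-3697996 (TAIR10), 1951 bases with a fold enrichment of 4.15 as the authors' peak caller gave it. Replicates 2 and 3 had 1 peak each, of 1976 and 1777 bases. Together the 27 libraries covered 2317 of the gene's 5758 bases, and 258 bases, chr5:3697085-3697342, lay under a peak in all 27. Beyond the other end of EMF1 further peaks lay over GulLO3, 1151 bases away, which was marked in all 3 libraries of all 9 groups.

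**Figure D4:**
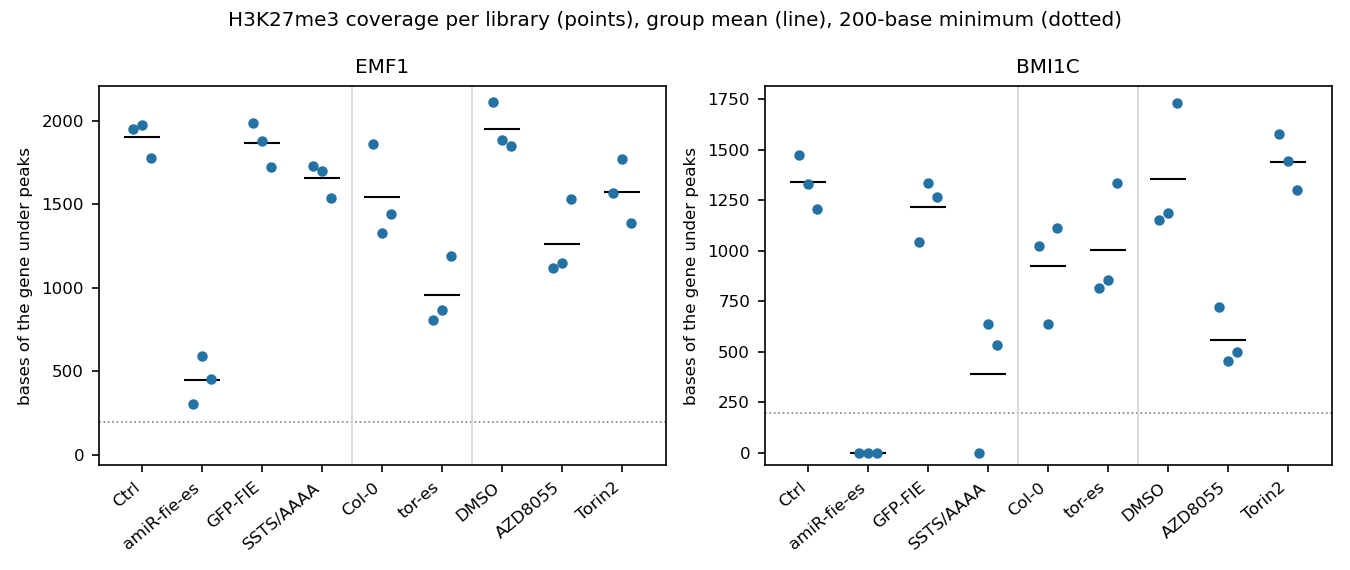
Bases of EMF1 and BMI1C under H3K27me3 peaks in each library (points) with the group mean (line); the dotted line marks 200 bases and vertical lines separate the experiments. For EMF1 amiR-fie-es lies at 305 to 594 bases and Ctrl at 1777 to 1976, and for BMI1C all 3 amiR-fie-es libraries lie at 0.

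Among the 4 shoot genotypes, both genes had the least mark when FIE was silenced. The amiR-fie-es peaks on EMF1 covered 305, 594 and 452 bases, where Ctrl covered 1951, 1976 and 1777. The groups did not overlap, and the mean fell from 1901 ± 108 to 450 ± 145 bases (SD, n = 3), a ratio of 0.237. The exact permutation test gave p = 0.1, which is the smallest that 3 against 3 allows, and 0.2 adjusted over the 16 tests of coverage, so no coverage difference in this study can pass the threshold. The share of all genes whose coverage did not overlap between groups is not given, here or in the comparisons below. Lack of overlap therefore does not set a member apart from other genes. What remained lay between positions 3697001 and 3697594, and its fold enrichment, 4.19 to 4.68, was as high as in Ctrl, at 4.15 to 4.87. The peaks' best −log10 q fell from between 19.9 and 29.1 to between 4.3 and 5.5.

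BMI1C covered 1474, 1333 and 1209 bases in Ctrl and 0 in each amiR-fie-es library (exact p = 0.1, the smallest possible). It was the 1 of the 8 genes that lost the mark, meaning 3 of 3 control libraries marked and 0 of 3 in the altered plants, where 10.2% of all 27444 genes lost it and 0.0255% gained it. EMF1 was the 1 marked in all 3 libraries of both groups, as 3.45% of all genes were. Of the 4913 genes marked in all 3 Ctrl libraries, 946 (19.3%) were still marked in all 3 amiR-fie-es libraries, 2800 (57.0%) lost the mark, and the median ratio of covered bases was 0. The share of genes marked per library fell from 19.4 to 20.7% in Ctrl to 5.51 to 5.79% in amiR-fie-es. Read depth is unknown from these peak lists, and its part in the peak widths was not tested.

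SSTS/AAAA kept most of the mark on EMF1 and less on BMI1C. On EMF1 the covered bases were 1989, 1877 and 1726 in GFP-FIE and 1732, 1701 and 1537 in SSTS/AAAA. These overlapped, with a ratio of 0.889 (exact p = 0.2), and the best −log10 q fell from between 19.0 and 24.5 to between 9.7 and 14.1. On BMI1C they were 1042, 1338 and 1266 in GFP-FIE and 0, 636 and 533 in SSTS/AAAA. These did not overlap, with a ratio of 0.321 (exact p = 0.1, the smallest possible), and replicate 1 alone had no peak. None of the 8 genes lost or gained the mark, where 2.89% of all genes lost it and 0.0109% gained it. Over the 4383 genes marked in all 3 GFP-FIE libraries, the median ratio was 0.463 and 55.4% were marked in all 3 SSTS/AAAA libraries. GFP-FIE and Ctrl overlapped for both genes, with ratios of 0.980 for EMF1 (exact p = 0.7) and 0.908 for BMI1C (exact p = 0.5), and none of the 8 lost or gained the mark, where 0.455% of all genes lost it and 0.0328% gained it.

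**Figure D5:**
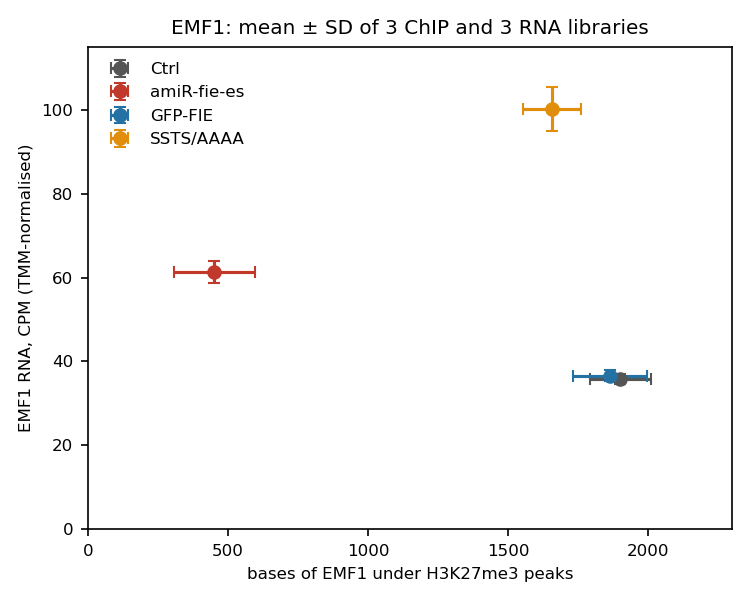
EMF1 RNA (CPM, y axis) against bases of EMF1 under H3K27me3 peaks (x axis) in the 4 genotypes, mean ± SD of 3 libraries each; RNA and ChIP libraries are separate samples. SSTS/AAAA has the most RNA, 100.3 CPM, with 1657 bases covered, and amiR-fie-es 61.4 CPM with 450 bases.

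Set side by side, the genotype with the least mark on EMF1 was not the one with the most RNA. The amiR-fie-es plants had a mean of 61.4 CPM with 450 bases under peaks, and SSTS/AAAA 100.3 CPM with 1657 bases. GFP-FIE had 36.6 CPM with 1864 bases and Ctrl 35.8 CPM with 1901. With 4 genotypes no relation between RNA and mark can be tested. RING1A and RING1B rose in both altered genotypes, as 17.8% of all tested genes did, with no peak over them in any library. The share of those genes without a peak is not given. RING1A was also higher in GFP-FIE than in Ctrl and missed the threshold in amiR-fie-es against GFP-FIE. RING1B values can hold reads of TPX2. The part of the mark in these changes was not tested.

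In 7-day seedlings, depletion of TOR and both inhibitors went with less covered sequence on EMF1. Col-0 covered 1860, 1326 and 1440 bases and tor-es 809, 869 and 1188, without overlap (ratio 0.620, exact p = 0.1, the smallest possible). In tor-es each library had 2 separate peaks on EMF1, one at the lower end and one over the stretch common to all libraries. The best −log10 q was 11.6 to 14.9 in Col-0 and 7.1 to 10.9 in tor-es. The median ratio over the 4003 genes marked in all 3 Col-0 libraries was 0.747, and none of the 8 genes lost or gained the mark, where 1.02% of all genes lost it and 0.0328% gained it. On BMI1C, Col-0 (1022, 639 and 1114 bases) and tor-es (815, 855 and 1338 bases) overlapped, with a ratio of 1.08 (exact p = 0.7).

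AZD8055 and Torin2, given at the same labelled dose and time, were compared with DMSO and with each other. On EMF1 the covered bases were 2112, 1886 and 1847 in DMSO, 1116, 1146 and 1529 in AZD8055 and 1566, 1772 and 1387 in Torin2. Neither inhibitor overlapped DMSO, with ratios of 0.649 and 0.808 (exact p = 0.1 for each, the smallest possible). The 2 inhibitors overlapped each other, with 311 more bases on average in Torin2 (212.8 to 444.0 when 1 library was left out, exact p = 0.2). Across the 7321 genes marked in all 3 DMSO libraries the median ratio was 0.806 for AZD8055 and 0.862 for Torin2.

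Coverage of BMI1C did not overlap between the inhibitors. Its ratio of Torin2 to AZD8055 was 2.58, where the median over the 7195 genes marked in all 3 AZD8055 libraries was 0.976. DMSO covered 1152, 1189 and 1729 bases, AZD8055 720, 457 and 501, and Torin2 1580, 1443 and 1299. AZD8055 lay below all DMSO libraries, with a ratio of 0.412, and below all Torin2 libraries, by 881 bases on average (811.7 to 961.7 when 1 library was left out, exact p = 0.1 for each, 0.2 adjusted). Torin2 overlapped DMSO, with a ratio of 1.06 (exact p = 0.8). None of the 8 genes lost or gained the mark under either inhibitor, where 1.27% of all genes lost it and 1.62% gained it under AZD8055, and 0.936% and 0.0255% under Torin2. Nor did any between the inhibitors, where 2.15% of all genes were marked in all 3 AZD8055 and in 0 Torin2 libraries, and 0.415% the other way round. AZD8055 libraries marked more genes than DMSO libraries, 32.1 to 33.8% against 30.0 to 30.7%, over less sequence, 6.64 to 7.09 Mb against 7.88 to 8.22 Mb, and the part of this in the BMI1C values was not tested.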

How the data were processed

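Members and gene lists were chosen with earlier results of these data known. For RNA, the submitters' processing notes name FastQC 0.11.5, Trimmomatic 0.36, HISAT2 2.1.0 with build TAIR10, and featureCounts of Subread 1.5.3. The authors deposited raw counts per gene and FPKM values, which equal count over length and library total. For ChIP the same notes name Trimmomatic, BWA 0.7.15-r1142, SAMtools 1.6 and MACS2, with builds TAIR10 and hg19. Peaks were called per library and have a deposited score, a fold enrichment ratio and −log10 p and q values from the authors. Inputs and thresholds are not given in the sources used here.

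Counts were tested with edgeR 4.0.16 (R 4.3.3): filterByExpr (20046 genes tested), TMM, 1 fit of 12 libraries, the two-sided quasi-likelihood test and Benjamini-Hochberg adjustment at 0.05. CPM used TMM library sizes. The difference of effects subtracts the amiR-fie-es change over Ctrl from the SSTS/AAAA change over GFP-FIE. Coverage was tested with two-sided exact permutation. Gene ends came from RefSeq's TAIR10.1 table, which matched 31912 of 32678 gene IDs. As a check of the 2 builds, 403 genes had peaks over at least 90% of their length in every Ctrl library, and 90 to 102 did once gene ends were shifted by 2000 to 20000 bases. The names BMI1A, BMI1B, BMI1C and LHP1 came with the loci. Genes named were all 8 members, FIE, the 5 most like EMF1 and RING1B, and up to 6 called genes per list and comparison with the largest change, of which some are given. Of 28 partner entries, 4 whose name and locus the table did not pair were left out. Promoter sequences were not used here. Alternatives were DESeq2 1.42.0 and its size factors, no filter, a replicate block, only the compared groups, left-out replicates and other peak criteria. Same-numbered replicates were not treated as paired. Library totals as scaling, GFP-FIE in place of Ctrl and flanks of 1 kb were added after seeing the data.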

Additional observations from a re-analysis of the deposited data

Results flagged for a closer look

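EMF1 RNA rose more in SSTS/AAAA over GFP-FIE than in amiR-fie-es over Ctrl. The SSTS/AAAA effect minus the amiR-fie-es effect was 0.68 ± 0.06 on the log2 scale (adjusted p = 1.6e-13, edgeR's quasi-likelihood test of the contrast). SSTS/AAAA also had less FIE RNA than GFP-FIE, and the part of the mutated sites was not tested. Each effect was positive, 1.45 over GFP-FIE and 0.78 over Ctrl.

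BMI1B had a difference of effects of 0.33 ± 0.11 (adjusted p = 0.0123), between a rise of 0.22 in SSTS/AAAA and a value of -0.11 in amiR-fie-es that did not pass. The difference missed the threshold without amiR-fie-es replicate 3 (0.26, adjusted p = 0.0628) and without GFP-FIE replicate 2 (0.28, adjusted p = 0.0546), and with DESeq2's Wald test (adjusted p = 0.0751).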

How the results depend on the processing

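Of the recomputed RNA changes of the members, 414 kept direction and side of the threshold, 18 reversed, 16 lost and 7 gained the threshold. With library totals, 6 members rose in amiR-fie-es in place of 3, and BMI1B (0.085) and VRN1 (0.17) there turned positive. With DESeq2's Wald test 1 member differed between the effects. Leaving out 1 library gave 1 to 3 such members, and 0 to 1 in GFP-FIE over Ctrl. RING1B's difference of effects, near 0, turned to -0.012 with DESeq2 size factors, -0.0018 without the filter and -0.011 with DESeq2, and ran from -0.11 to 0.063 over left-out libraries. Over left-out libraries, changes near 0 also crossed it: VRN1 ran from -0.039 to 0.00055 in amiR-fie-es and from -0.00018 to 0.076 in SSTS/AAAA over Ctrl, and LHP1 from -0.054 to 0.021 in GFP-FIE over Ctrl. BMI1A in SSTS/AAAA over GFP-FIE missed the threshold with DESeq2 (adjusted p = 0.152), its size factors (0.0537) and only the compared groups in the fit (0.0516), and BMI1B with DESeq2 (0.0611). The cause was not tested.

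If at least 50% of the gene had to be covered, 0 members lost the mark in amiR-fie-es. Ctrl replicates 2 and 3 covered 49.4% and 44.8% of BMI1C and so were not called marked by that rule. BMI1C in Torin2 minus DMSO was -321 bases with peaks of −log10 q of at least 5, and -18.3 to 270.2 over left-out libraries. In the same way EMF1 in GFP-FIE minus Ctrl ran from -99.8 to 31.7 bases and BMI1C in tor-es minus Col-0 from -90.0 to 172.2.

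Replicate numbers did not pair libraries (correlations of deviations -0.04 to 0.05). With a replicate block 11828 genes were called in amiR-fie-es over Ctrl, from 11873, and 13083 in SSTS/AAAA over GFP-FIE, from 13137. No member's call changed. The reference table gives no strand, so the planned upstream window was not run, and flanks of 1 kb on both sides took its place. Depth of the ChIP libraries is unknown, and BMI1C, with 1 to 10 reads per genotype, is limited by counting.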

Other observations

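VRN1 had no peak over its body. With 1 kb added on both sides, peaks lay in these flanks in 5 of 27 H3K27me3 libraries. They covered 417 and 446 bases in DMSO replicates 1 and 2, and 225 and 258 bases in AZD8055 replicates 2 and 3. In Ctrl replicate 2 they covered 204 bases. The share of all genes with such flank peaks is not given. The VRN1 neighbour ETP1, 35 bases away, was marked in 3 of 3 DMSO and 2 of 3 AZD8055 libraries.

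Of the 24 partner genes, AL7 was marked in all 3 DMSO libraries, and AL2, AL3, AL4, AL7 and ICU2 in all 3 AZD8055 libraries, 20.8% of the list where 26.2% of all genes were marked. None of the 24 was marked in all 3 libraries of any other group. The PRC2 genes MEA and FIS2 were marked in all 3 libraries of every group except amiR-fie-es, where neither was, and SSTS/AAAA, where MEA was. Of the 22 targets, all marked in Ctrl, 13 were marked in all 3 amiR-fie-es libraries, where 19.3% of the genes marked in all 3 Ctrl libraries were. In all 3 GFP-FIE libraries 21 were marked and in all 3 SSTS/AAAA libraries 19, where 55.4% of the genes marked in GFP-FIE were.

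On BMI1C no base lay under peaks in all 23 libraries that marked it. The most shared stretch, 41 bases at chr3:8200970-8201010, lay under peaks in 21 of them. AT5G17700, 807 bases from LHP1, was marked in all 3 libraries of Ctrl, GFP-FIE, Col-0, DMSO, AZD8055 and Torin2. It was marked in 2 of 3 SSTS/AAAA libraries and in 0 of amiR-fie-es and tor-es. LHP1 itself was unmarked in all of these but AZD8055 replicate 1.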
